A study of Mus musculus with 6 samples.

Results

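Axonemal dyneins are the motors that bend cilia and sperm tails. Outer and inner dynein arms are built from heavy chains, which hydrolyse ATP and pull on the neighbouring microtubule doublet, and from intermediate and light chains. The arms are put together in the cytoplasm by the dynein axonemal assembly factors (Dnaaf genes) with general chaperones, and outer arms are then fixed to the doublet by a docking complex (Odad genes). In the testis spermatocytes begin to transcribe genes of the sperm tail before the tail itself is built in spermatids.

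The genes described here are the protein-coding genes of the deposited table with a symbol starting Dnah, Dnai, Dnal, Dnaaf or Odad followed by a number, and Dnali1. There were 34 of them among 29333 genes, grouped as 9 outer arm, 13 inner arm, 4 docking complex and 8 assembly factor genes, and 15 were heavy chains. The groups were Hsf5 knockout (Hsf5-/-) testes and control testes, both taken whole from mice at postnatal day 16. The labels call the controls wild type and the design text also allows Hsf5+/- animals among them. HSF5 is a member of the heat shock transcription factor family that is expressed in spermatocytes. The sources used here give neither the strain nor the Hsf5 allele, nor whether testes were pooled. Of 3 samples per group in the labels, 2 per group had values and were analysed: knockout 1, knockout 3, control 1 and control 2. No label says that they came from separate animals, and the p-values cover the spread among these libraries alone.

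Libraries held between 16209093 and 18557898 reads recovered from the normalised values. Hsf5 on chromosome 11 had a normalised read count of 1926 in knockout 1 and 1602 in knockout 3, against 2541 in control 1 and 3147 in control 2. It was lower in the knockouts by a log2 fold change of -0.69 (SE 0.12, adjusted p = 0.00716 by limma with Benjamini-Hochberg adjustment), and the call was lost without control 2 (adjusted p = 0.108) and without knockout 3 (adjusted p = 0.072). A whole-gene count does not show whether the deleted part of the transcript remained, so these values do not by themselves check the genotype. The controls stood apart from each other. Of 33 dynein genes tested, 31 were higher in control 2 than in control 1, against 53.5% of all tested genes, with a median log2 excess in control 2 of 0.62 for the dynein genes and 0.02 for all genes. Fold changes without each control are therefore drawn for the 33 tested genes in the plot of log2 fold changes by class. The text gives them for some of the genes whose call or value depended on a control. For the others it gives an adjusted p alone or neither.

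Genes of every class, outer arm, inner arm, docking complex and assembly factors, fell in the knockout testes. A gene was tested if its mean value over the 4 libraries was at least 10, which 33 of the 34 genes passed, and called at a limma Benjamini-Hochberg adjusted p under 0.05. In this test 24 of 33 genes fell and 0 rose, where 13.5% of all 17480 tested genes fell and 3.28% rose. At an unadjusted p under 0.05 limma also had 0 of the 33 higher, where 10.8% of all tested genes were. On the recovered reads edgeR called 23 of the 33 lower and 0 higher (12.3% and 2.96% of all genes), and DESeq2 called 23 lower and 0 higher (13.3% and 3.28% of all genes). The median log2 fold change was -1.78, against 0.01 over all tested genes. Both knockouts lay below both controls in 31 of the 33 genes, against 31.9% of all genes. The fitted log2 fold change was at or below -2 in 16 of the 33, against 4.14% of all genes. The authors' deposited table has an adjusted p under 0.05 with a lower knockout value for 23 of the 34 genes, against 11.3% of all genes with an adjusted p in that table. All 23 were also called by limma, and the 1 further limma call was Dnal1, with an adjusted p of 0.0685 in the authors' deposited table. Markers of pachytene spermatocytes moved with these genes: 12 of 12 fell, and their summed level was 16160.5 and 12861 in the knockouts, against 49116 and 73438 in the controls. In whole testis fewer cells of a type and less RNA per cell cannot be told apart, and the part of the pachytene markers in the falls was not tested.

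**Figure D1:**
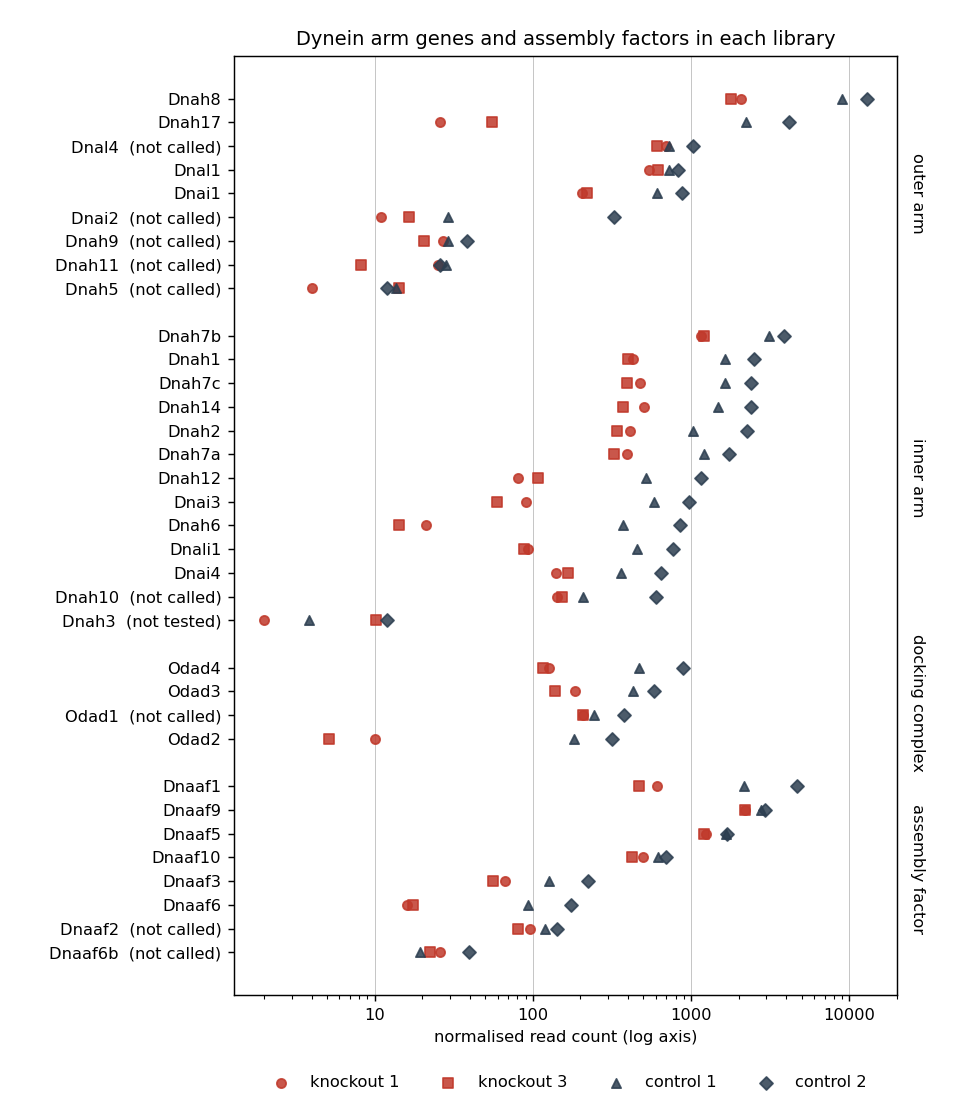
Normalised read count of each of the 34 genes in each library, on a log axis, by class and ordered by the control mean. Red symbols are the 2 knockout and dark symbols the 2 control libraries. The knockout symbols lie left of the control symbols in 31 of the 33 tested genes, with the widest gap in Dnah17.

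The outer arm carries the heavy chains that set beat frequency. In mouse sperm these are Dnah8 and Dnah17, while Dnah5, Dnah9 and Dnah11 serve motile cilia such as those of the airway. Of 9 outer arm genes tested, 4 fell and 5 were not called, with a median log2 fold change of -0.85. That median is the value of Dnah11, and Dnah5, Dnah9 and Dnah11, all with few reads, were among the 5. The inner arm chain with few reads, Dnah3, was left out by the filter, so the medians of the arm classes are not a like comparison.

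Dnah17 on chromosome 11 had 26.1 and 55.3 normalised reads in knockout 1 and knockout 3, against 2236 and 4162 in control 1 and control 2. The knockout libraries were both far below the controls, at 1.27% of the control mean. This was the largest fall among the 33 genes, a log2 fold change of -6.29 (SE 0.36, limma adjusted p = 7.93e-05). Dnah8 on chromosome 17, its partner heavy chain, had 2069 and 1803 in the knockouts, against 9068 and 12944 in the controls. The groups were again well apart, and 17.6% of the control mean was left (log2 fold change -2.49, SE 0.15, limma adjusted p = 8.45e-05).

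Dnai1 and Dnai2 encode the intermediate chains at the base of the outer arm. Dnai1 had 205 and 221 normalised reads in the knockouts, against 608 and 884 in the controls, and fell by 1.78 on the log2 scale (SE 0.18). Dnai2 had 11.02 and 16.4 in the knockouts, against 29.1 in control 1 and 324 in control 2. Control 1 was here nearer to the knockouts than to control 2, and the gene was not called (log2 fold change -2.77, SE 0.91, limma adjusted p = 0.0748). Without control 1 the log2 fold change of Dnai2 was -4.49 with a call (limma adjusted p = 0.00553), and without control 2 it was -1.06 (adjusted p = 0.274).

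The light chain genes differed less between the groups. Dnal1, which binds a heavy chain motor domain, had 543 and 618 normalised reads in the knockouts, against 729 and 834 in the controls. It fell by 0.43 on the log2 scale (limma adjusted p = 0.0461), but the call was lost when any 1 library was left out (adjusted p from 0.0708 to 0.261) and in edgeR (adjusted p = 0.0664) and DESeq2 (adjusted p = 0.0579). Dnal4 had 694 and 612 in the knockouts, against 729 and 1027 in the controls, and was not called (log2 fold change -0.41, limma adjusted p = 0.129), with a call without control 1 (-0.66, adjusted p = 0.0361) and none without control 2 (-0.16, adjusted p = 0.547).

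The 3 heavy chains of motile cilia were near the floor of detection in every library. Dnah9 had 27.1 and 20.5 normalised reads in the knockouts, against 29.1 and 38.7 in the controls. Dnah11 had 25.1 and 8.20 in the knockouts, against 28.1 and 25.8 in the controls, and Dnah5 had 4.01 and 14.3, against 13.6 and 11.9. Their log2 fold changes were -0.49 (SE 0.39), -0.85 (SE 0.56) and -0.65 (SE 0.67), and none was called (limma adjusted p between 0.345 and 0.563).

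Inner arms shape the waveform of the beat. Dnah2 and Dnah10 are the heavy chains of the double-headed inner arm, Dnai3 and Dnai4 its intermediate chains, Dnah1, Dnah3, Dnah6, Dnah7 and Dnah12 belong to single-headed arms, and Dnali1 is a light intermediate chain of some of these. Of 12 inner arm genes tested, 11 fell and 1 was not called. The class median was -2.15, and the smallest fall was -1.54. Dnah3, a single-headed arm chain, was the 1 gene under the filter, with 2.004 and 10.2 normalised reads in the knockouts, against 3.88 and 11.9 in the controls.

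Dnah6 on chromosome 6 had the largest fall of the inner arm genes. Its normalised read count was 21.05 in knockout 1 and 14.3 in knockout 3, against 371 in control 1 and 856 in control 2, which left 2.88% of the control mean. The log2 fold change was -4.94 (SE 0.39, limma adjusted p = 0.000211), and -5.54 without control 1 and -4.34 without control 2, both with a call. Dnah12 on chromosome 14 had 81.2 and 109 in the knockouts, against 517 and 1162 in the controls (log2 fold change -3.03, SE 0.34, limma adjusted p = 0.000777). In both genes the lower control was more than 4 times the higher knockout.

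Dnai3 on chromosome 3 had 90.2 and 59.4 normalised reads in the knockouts, against 583 and 975 in the controls, a log2 fold change of -3.35 (SE 0.28, limma adjusted p = 0.000272). Dnali1 on chromosome 4 had 93.2 and 88.1 in the knockouts, against 456 and 771 in the controls (log2 fold change -2.70, SE 0.24, limma adjusted p = 0.000336). Groups did not overlap in either gene, and the knockouts were closer to each other in Dnali1 than in Dnai3. Dnai4 fell by 1.66 on the log2 scale with 139 and 168 in the knockouts, against 364 and 648 in the controls, and lost its call without control 2 (limma adjusted p = 0.0553).

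Dnah1 on chromosome 14 had 428 and 399.5 normalised reads in the knockouts, against 1639 and 2517 in the controls. Dnah14 had 503 and 371 in the knockouts, against 1478 and 2396 in the controls, and Dnah2 had 409 and 341, against 1028 and 2257. The 3 genes kept between 19.9% and 22.8% of the control mean, with log2 fold changes of -2.29, -2.12 and -2.02, and their calls held without each library in turn, though Dnah2 lost its call without the filter on low values (adjusted p = 0.0749). Dnah10, the partner of Dnah2, was the inner arm gene that was not called. It had 142 and 153 normalised reads in the knockouts, against 207 in control 1 and 604 in control 2 (log2 fold change -1.26, SE 0.41, limma adjusted p = 0.0712), and the value depended on the controls: -2.03 with a call without control 1 (adjusted p = 0.0057) and -0.49 without control 2 (adjusted p = 0.32).

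**Figure D2:**
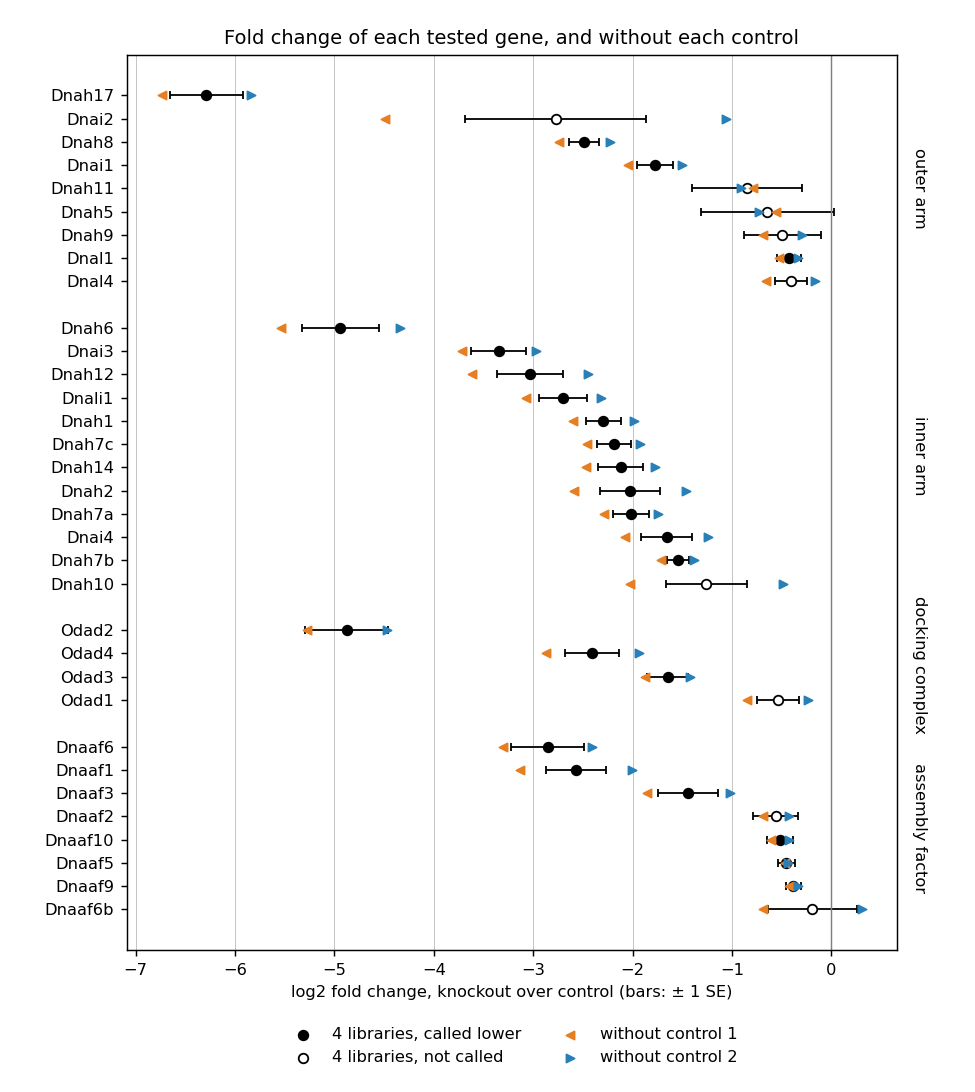
Log2 fold change of knockout over control for the 33 tested genes, by class, with bars of 1 SE. Filled circles are genes called lower, open circles were not called, and triangles give the value without control 1 (orange) or without control 2 (blue). The circle lies left of 0 for all 33 genes, and the blue triangle lies right of 0 for Dnaaf6b alone.

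Dnah7a, Dnah7b and Dnah7c are near-identical copies on chromosome 1 that encode a single-headed inner arm heavy chain. Between 40.3% and 48.5% of all 50-base stretches of the longest transcript of each copy occur unchanged in a transcript of the other copies (GENCODE M21), and no source used here says how shared reads were counted, so the split of reads between the copies is uncertain. Dnah7b had 1165 and 1214 normalised reads in the knockouts, against 3097 and 3891 in the controls. Dnah7c had 478 and 395 in the knockouts, against 1649 and 2388 in the controls, and Dnah7a had 395 and 326, against 1204 and 1750. All 3 fell, with log2 fold changes of -1.54, -2.19 and -2.01 (SE 0.11, 0.17 and 0.18), and the groups did not overlap.

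Heat shock factors bind inverted repeats of the letters GAA. The promoter windows of 24 of the 34 genes were found in the RefSeq table (GRCm38.p6, 250 bases before to 50 after the start), 16 of them of genes called lower. No window was found for any docking complex gene, nor for Dnaaf1, Dnaaf9, Dnaaf10, Dnai3, Dnai4 and Dnah3, so these were not searched. The head-to-head pair GAANNTTC, which reads the same on both strands, was in 4 of these 24 windows, against 7.86% of all 32851 promoters in the table. They were the windows of Dnah1 and of the Dnah7 copies, whose sequence is shared. The tail-to-tail pair TTCNNGAA was in 0 of the 24 windows, against 8.52% of all promoters. A triplet, in which either pair is followed after 2 bases by a further GAA or TTC so that the units alternate, was also in 0 of the 24, against 0.603% of all promoters. Its phases are reverse complements of each other, so on both strands they are the same search. The stretches around the pair in these 4 promoters are shown, with the letters GAANNTTC in capitals, because they are the windows with a match. They lie at chr1:53706862-53706929 on the minus strand for Dnah7a, chr1:46066741-46066808 on the plus strand for Dnah7b, chr1:46425361-46425428 on the plus strand for Dnah7c and chr14:31323930-31323997 on the minus strand for Dnah1. A match is a description of letters and not a binding site.
Dnah7a: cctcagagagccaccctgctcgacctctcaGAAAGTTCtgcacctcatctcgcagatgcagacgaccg
Dnah7b: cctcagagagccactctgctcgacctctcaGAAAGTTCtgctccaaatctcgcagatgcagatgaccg
Dnah7c: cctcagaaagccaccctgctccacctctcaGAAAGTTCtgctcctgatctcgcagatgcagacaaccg
Dnah1: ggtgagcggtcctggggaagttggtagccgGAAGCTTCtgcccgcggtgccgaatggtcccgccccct

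The heavy chains were not lowered to the same degree, so their make-up differed between the groups. Levels were compared between genes as normalised reads per kilobase of the longest protein-coding transcript (GENCODE M21), whose length may differ from the gene model the authors counted on. The summed heavy chain level was 414 and 377 per kilobase in knockout 1 and knockout 3, against 1580.4 and 2457 in control 1 and control 2. With the Dnah7 copies counted apart, Dnah8 had the largest share in each library. It held 29.9% and 28.6% of the sum in the knockouts, against 34.4% and 31.6% in the controls. Dnah17 made up 0.420% and 0.979% in the knockouts, against 9.45% and 11.3% in the controls. The outer arm chains together made up 31.3% and 30.4% in the knockouts, against 44.2% and 43.1% in the controls. Both knockouts lay below both controls in this share.

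**Figure D3:**
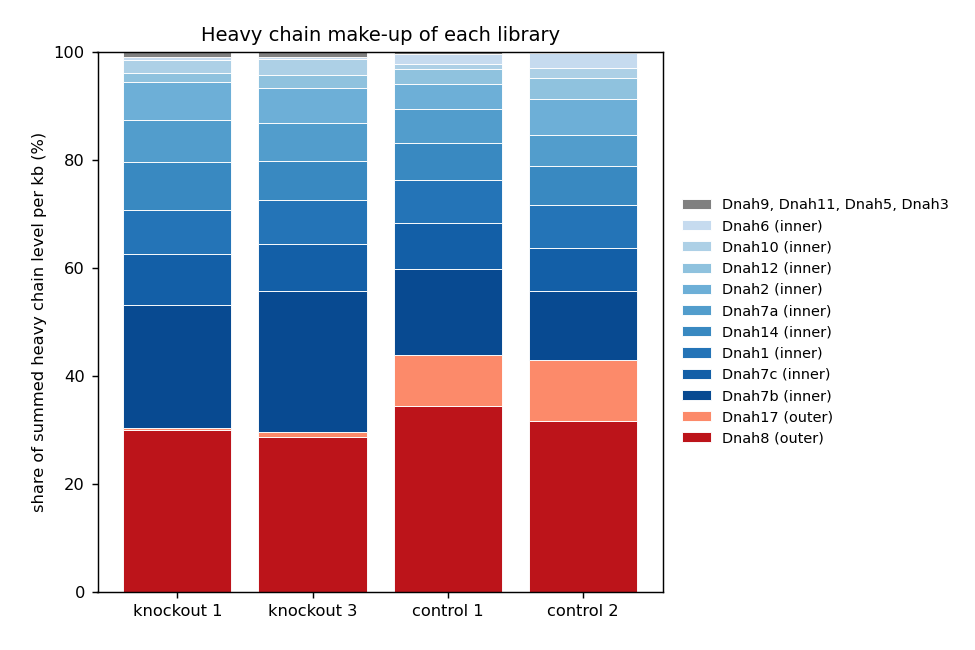
Share of each heavy chain gene in the summed heavy chain level per kilobase in each library, with outer arm chains in red and inner arm chains in blue. Dnah9, Dnah11, Dnah5 and Dnah3 are drawn together in grey. The band of Dnah17 is 0.420% and 0.979% in the knockouts, against 9.45% and 11.3% in the controls.

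The Dnah7 copies together held 40.1% and 41.8% of the heavy chain level in the knockouts, against 30.7% and 26.6% in the controls. Within a library the ratio of 2 genes does not depend on the size factor. The pairs were set with earlier results known, and each ratio restates the fold changes of its 2 genes. Dnah17, Dnah6 and Dnah12 fell more than the genes they are set over, so their lower ratios follow from the choice of pairs. Ratios over Dnah7b also rest on the uncertain split of reads between the Dnah7 copies. The ratio of Dnah17 to Dnah8 was 0.0140 and 0.0342 in the knockouts, against 0.275 and 0.358 in the controls. The ratio of Dnah6 to Dnah7b was 0.0176 and 0.0115 in the knockouts, against 0.117 and 0.214 in the controls, and that of Dnah12 to Dnah7b was 0.0715 and 0.0917 in the knockouts, against 0.171 and 0.306 in the controls. These 3 ratios were lower in both knockouts than in either control, while the ratio of Dnah10 to Dnah2, the pair of the double-headed arm, was higher, at 0.340 and 0.437 in the knockouts, against 0.197 and 0.261 in the controls. With 2 samples in each group an exact permutation test (two-sided) cannot give a p under 0.333, and p was 0.333 for each of these 4 ratios. The ratio of Dnai2 to Dnai1 did overlap, at 0.0469 and 0.0647 in the knockouts, against 0.0418 and 0.321 in the controls (exact permutation p = 1).

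The docking complex is the base plate on which outer arms sit, and the 4 genes with an Odad symbol were all tested. Of these 3 fell and Odad1 was not called, with a median log2 fold change of -2.03. Docking genes under other symbols are not in this count. Odad2 on chromosome 18, which encodes an armadillo repeat protein of the complex, had 10.02 and 5.12 normalised reads in the knockouts, against 181 and 317 in the controls. Its knockout level was 3.04% of the control mean (log2 fold change -4.87, SE 0.42, limma adjusted p = 0.000293). Odad4 had 126 and 116 in the knockouts, against 466 and 893 in the controls (log2 fold change -2.41, SE 0.27, limma adjusted p = 0.000823). Odad3 had 184 and 137, against 428 and 587 (log2 fold change -1.65, SE 0.21), and lost its call without control 2 (limma adjusted p = 0.0523). Odad1, a coiled-coil subunit, was flatter, with 207 and 209 in the knockouts, against 245 and 375 in the controls (log2 fold change -0.54, SE 0.21, limma adjusted p = 0.123), and it was called without control 1 (-0.85, adjusted p = 0.0463) but not without control 2 (-0.24, adjusted p = 0.566).

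Of the 8 assembly factors 6 fell and 2 were not called, and the median log2 fold change was -0.54. They separated by size into 3 genes that fell more than 2-fold and 5 with a fitted log2 fold change between -0.56 and -0.19. The count of falls depended on the libraries: it was 2 without control 2 and without knockout 3, 3 without knockout 1, and 5 without control 1.

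Dnaaf1, a leucine-rich repeat protein needed for outer and inner arm assembly, had 611 and 467 normalised reads in the knockouts, against 2151 and 4689 in the controls. It fell by 2.57 on the log2 scale (SE 0.30, limma adjusted p = 0.000963), and 15.8% of the control mean was left. Per kilobase it was the highest of the 34 genes in the control mean and the fifth highest in the knockout mean. Dnaaf3 had 67.1 and 56.3 in the knockouts, against 126 and 225 in the controls, and fell by 1.44 on the log2 scale (limma adjusted p = 0.0137). Leaving out control 2 (adjusted p = 0.182), knockout 1 (0.0507) or knockout 3 (0.102) ended the Dnaaf3 call.

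Dnaaf5, a HEAT repeat protein, had 1248 and 1208 normalised reads in the knockouts, against 1662 and 1698 in the controls. Dnaaf9, whose counterpart in Tetrahymena binds outer arms before they reach the cilium, had 2183 and 2200.4 in the knockouts, against 2776 and 2941 in the controls, and Dnaaf10, a WD repeat protein that works with chaperones, had 495 and 421, against 615 and 697. In these 3 genes the controls were close to each other and the knockouts kept 73.1%, 76.7% and 69.8% of the control mean (log2 fold change -0.45, -0.38 and -0.52, limma adjusted p = 0.00782, 0.0107 and 0.0298). None of the 3 calls held without each library: Dnaaf5 lost it without control 2 and without knockout 3 (adjusted p = 0.0675 and 0.0836), Dnaaf9 without control 2, knockout 1 or knockout 3 (adjusted p from 0.077 to 0.0918), and Dnaaf10 when any 1 library was left out (adjusted p from 0.0606 to 0.231). Dnaaf2, a cofactor of the chaperone HSP90, had 96.2 and 80.9 in the knockouts, against 119 and 143 in the controls, and was not called (log2 fold change -0.56, SE 0.23, limma adjusted p = 0.136).

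Dnaaf6 and Dnaaf6b are paralogs on chromosome 1 and chromosome X. Dnaaf6, also known as Pih1d3, is needed in mouse for the dynein arms of sperm. Dnaaf6 had 16.0 and 17.4 normalised reads in the knockouts, against 93.1 and 174 in the controls, which left 12.5% of the control mean. It fell by 2.85 on the log2 scale (SE 0.37, limma adjusted p = 0.00139). Dnaaf6b had 26.1 and 22.5 in the knockouts, against 19.4 and 39.7 in the controls, with overlapping groups and no call (log2 fold change -0.19, SE 0.45, limma adjusted p = 0.815; 0.31 without control 2). The transcripts of the paralogs share little unbroken sequence, since 1.21% of 50-base stretches of the Dnaaf6 transcript occur in Dnaaf6b. Per kilobase, Dnaaf6 was 0.640 and 0.804 times Dnaaf6b in the knockouts, against 4.99 and 4.55 times in the controls. This ratio lay on opposite sides of 1 in the groups, rests on 20 to 40 reads of Dnaaf6b per library, and had an exact permutation p of 0.333, the smallest that 2 against 2 can give.

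RFX transcription factors, which drive genes of motile cilia, bind the X-box. Its letters were searched on both strands as GTNNCC and GGNAAC with 2 bases between them, and were found in 3 of the 24 promoter windows, against 1.29% of all promoters. These were the windows of Dnaaf6, Dnaaf6b and Dnaaf5. The windows of the paralogs Dnaaf6 and Dnaaf6b share sequence around the letters, so they are not independent matches. Other spacings and other letters were not searched, so a window without a match can still hold a similar inverted repeat. For example, the windows of Dnai2, Dnah6 and the Dnah7 copies, counted without a match, hold GTTGC shortly before GCAAC. How often such looser repeats occur among all promoters was not counted. The promoters of the paralogs are shown because both hold the X-box letters, which are in capitals, while the level of Dnaaf6 alone of the pair was called lower. The window of Dnaaf6 is chr1:31222589-31222888 and that of Dnaaf6b is chrX:140062629-140062928, both on the plus strand (RefSeq, GRCm38.p6). The letters begin 59 bases before the start in Dnaaf6 and 7 bases before it in Dnaaf6b.
Dnaaf6: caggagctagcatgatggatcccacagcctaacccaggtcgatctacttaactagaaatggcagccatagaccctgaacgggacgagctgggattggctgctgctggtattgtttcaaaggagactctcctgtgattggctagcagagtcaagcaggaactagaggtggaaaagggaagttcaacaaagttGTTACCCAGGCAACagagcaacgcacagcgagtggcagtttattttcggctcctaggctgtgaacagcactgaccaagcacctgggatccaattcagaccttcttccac
Dnaaf6b: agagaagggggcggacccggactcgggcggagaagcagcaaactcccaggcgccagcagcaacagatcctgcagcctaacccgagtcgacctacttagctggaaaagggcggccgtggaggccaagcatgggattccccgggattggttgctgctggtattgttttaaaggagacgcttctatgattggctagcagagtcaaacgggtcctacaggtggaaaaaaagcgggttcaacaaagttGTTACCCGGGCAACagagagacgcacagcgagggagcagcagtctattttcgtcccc

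**Figure D4:**
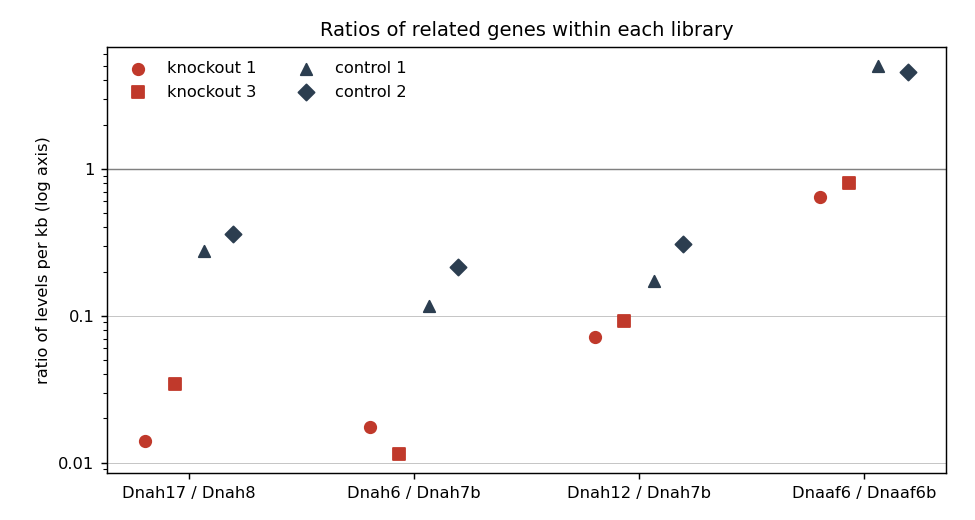
Ratio of the levels per kilobase of related genes within each library, on a log axis, with red symbols for knockout and dark symbols for control libraries. The 4 ratios drawn are Dnah17 over Dnah8, Dnah6 and Dnah12 over Dnah7b, and Dnaaf6 over Dnaaf6b, and in these the groups do not overlap. Dnah10 over Dnah2, which was higher in the knockouts, and Dnai2 over Dnai1, whose groups overlapped, are not drawn. Dnaaf6 over Dnaaf6b is 0.640 and 0.804 in the knockouts, against 4.99 and 4.55 in the controls.

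Genes of the same machinery that carry other symbols were taken from lists of known roles. Of 14 arm-associated symbols listed, 11 had values and 10 were tested. Among these 8 fell, with a median of -2.35 on the log2 scale, while Ccdc63 (-0.51) and Cfap100 (0.0004) were not called. The largest falls were in Nme8, a thioredoxin domain protein of the outer arm (-4.16), Cfap57, of the inner arm region (-2.95), and the light chain gene Dynlt2a3 (-2.89). The related symbols Dynlt2a1 and Dynlt2a2 had no values, and how shared reads were counted is not known. Nme8 had 3.01 and 1.024 normalised reads in the knockouts, against 14.5 in control 1 and 166 in control 2, so that the controls lay far apart, as they did for Dnai2. Its call was lost without control 2, knockout 1 or knockout 3 (limma adjusted p = 0.0732, 0.0681 and 0.154), and its log2 fold change was -5.87 without control 1, -2.45 without control 2, -4.65 without knockout 1 and -3.67 without knockout 3. The call of Dynlt2a3 was lost without control 2 (adjusted p = 0.0519).

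Among other assembly and chaperone genes 10 of 13 fell, with a median of -0.68. The largest log2 fold changes were -2.30 in Daw1, which carries outer arms into cilia, -2.19 in Zmynd10, a cofactor of arm assembly, and -1.45 in Lrrc56. The Daw1 call was lost without control 2 (limma adjusted p = 0.0953). Lrrc6 and Ccdc103 are the assembly factors Dnaaf11 and Dnaaf19 under older symbols and were named after their values were seen. Lrrc6 had 185 and 142 normalised reads in the knockouts, against 475 and 624 in the controls, and fell by 1.74 on the log2 scale (limma adjusted p = 0.00077). Ccdc103 had 172 and 97.3 in the knockouts, against 164 and 194 in the controls, with overlapping groups (log2 fold change -0.46, limma adjusted p = 0.306).

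Cytoplasmic dyneins share ancestry with the axonemal motors but carry cargo inside the cell. Of 17 cytoplasmic dynein and light chain genes 9 fell and 1 rose. Their median log2 fold change was -0.41, and 0 had a fitted log2 fold change of -2 or less. The largest falls were in Dync2i1 (-0.99) and Dync2h1 (-0.91), subunits of the motor of intraflagellar transport, and in the light chain gene Dynlt1a (-0.88), whose call was lost without control 2 and without knockout 3 (limma adjusted p = 0.0786 and 0.0889). Dync1h1, the heavy chain of the main cytoplasmic motor, was named after its values were seen. It had 13659 and 14360 normalised reads in the knockouts, against 15229 and 16678 in the controls (log2 fold change -0.19, limma adjusted p = 0.107), and it was called lower when libraries were set to equal Sertoli marker levels (-0.43, adjusted p = 0.0119). The rise was in the light chain gene Dynll2 (0.36, limma adjusted p = 0.0058), also named after its value was seen, and was lost without control 2 and without knockout 3 (adjusted p = 0.108 and 0.0515) and with equal Sertoli marker levels (0.12, adjusted p = 0.26).

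Among transcription regulators of ciliary and pachytene genes 5 of 8 tested fell, with a median of -0.74. Of these Tbpl1 (-0.86) is also counted among the pachytene markers. Rfx2, a regulator of ciliary genes in spermatocytes, had 1002 and 918 normalised reads in the knockouts, against 2111 and 2886 in the controls (log2 fold change -1.36, SE 0.14, limma adjusted p = 0.000606). The other large falls were in Rfx4 (-1.83), lost without control 2 (limma adjusted p = 0.0787), and Crem (-1.62). Foxj1, the regulator of motile cilia, was looked at after its value was seen and had 70.2 and 77.9 in the knockouts, against 68.8 and 66.4 in the controls (log2 fold change 0.13, and -0.11 with equal Sertoli marker levels, neither called).

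**Figure D5:**
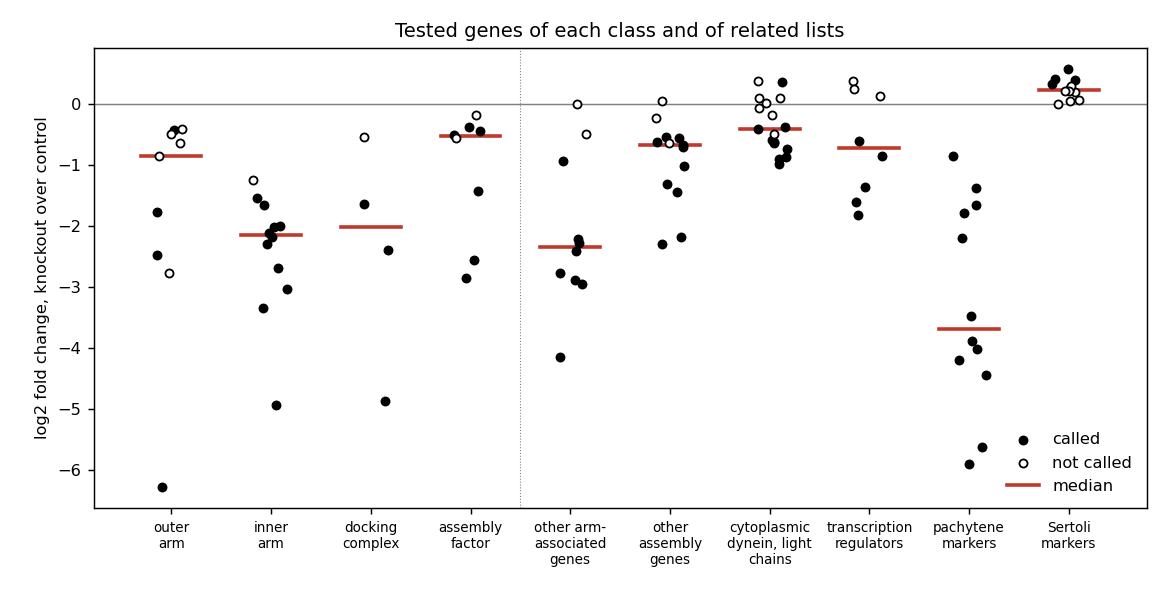
Log2 fold change of each tested gene in the 4 dynein classes, left of the dotted line, and in related gene lists and cell type markers, right of it. Filled circles were called and open circles were not, and red lines are medians. They are -0.85, -2.15, -2.03 and -0.54 for the 4 classes, and -2.35, -0.68, -0.41 and -0.74 for the related lists. Pachytene markers have -3.69 and Sertoli markers 0.23. The outer arm median is the value of Dnah11, a gene with few reads.

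The pachytene markers had a median of -3.69 on the log2 scale. Like the dynein genes they were higher in control 2 than in control 1, by a median of 1.09 on the log2 scale. All 6 Leydig cell markers listed were also higher in control 2, by a median of 0.53, and 0 were called lower or higher. Of Sertoli markers 2 of 12 and of spermatogonia markers 1 of 10 were higher in control 2. Of 10 early meiotic prophase markers 1 was called, with a median of -0.16, while spermatogonia markers had 4 rises and 1 fall among 10, with a median of 0.33, and Sertoli cell markers had 4 rises among 12, with a median of 0.23. Of 10 markers of round spermatids 7 were in the table and 3 were tested. Acr fell by 2.39 on the log2 scale (limma adjusted p = 0.0013), while Spaca1 (-0.14) and Tssk6 (-0.18) were not called. Acr had 112 and 77.9 normalised reads in the knockouts, against 359 and 681 in the controls. Prm1, Prm2, Acrv1 and Catsper3 each had at most 4 recovered reads in any library.

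Ducts that leave the testis are lined with multiciliated cells, whose cilia also carry dynein arms. Of 12 markers of multiciliated and duct cells 10 were in the table and 7 were tested, with 1 fall and 1 rise. Their summed level was 708 and 648 in the knockouts, against 559 and 484 in the controls, and none of the 10 was at 0 in every library. Without Tppp3 the other 9 summed to 193 and 204 in the knockouts, against 212 and 200.3 in the controls. Mcidas, a switch gene of multiciliated cells, had 11.02 and 1.024 normalised reads in the knockouts, against 8.73 and 3.97 in the controls. The fall was in Cdhr4, with 7.02 and 1.024 in the knockouts, against 36.8 and 73.4 in the controls, and was lost without control 2 (limma adjusted p = 0.128). The rise was in Tppp3, with 514 and 445 in the knockouts, against 347 and 284 in the controls, and was lost without control 2, knockout 1 or knockout 3 (limma adjusted p = 0.202, 0.207 and 0.0958). The part of these cells in the dynein gene levels was not tested.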

How the data were processed

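Testis RNA sequencing libraries were processed by the authors with cutadapt, Bowtie2, featureCounts and DESeq2 on build mm39, per the submitters' processing notes. Versions, strand setting, annotation release and the counting of shared reads do not appear in the sources used here. The deposited signal of each library is a read count divided by 1 size factor, which was checked on the values: 100% were whole multiples of the library's smallest value within 1e-06. The authors' deposited table also holds a mean per gene, a log2 fold change and its standard error, the test statistic as a score, and raw and adjusted p-values, per the file headers.

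The main test was limma 3.58.1 (R 4.3.3) with a mean-variance trend and no covariates, applied to log2(value + 1) of genes averaging 10 or more, with Benjamini-Hochberg adjustment over all 17480 and calls at an adjusted p under 0.05. Prior degrees of freedom were 6.3 against 2 residual ones, so p-values rest largely on variance pooled over genes. Fold changes on this scale understate those of low genes. edgeR 4.0.16 and DESeq2 1.42.0 on the recovered reads were alternatives, beside other pseudocounts, scalings and filters and leaving out each library. The fit was also run on simulated counts with the same dispersion for every gene and no added difference between replicates. That run cannot say how the test behaves on these libraries, whose controls stood apart. The dynein genes, lists and tests were chosen with earlier results of these data known. By rule every dynein gene was named, with library values for up to 4 called genes of the largest change and 3 uncalled ones of the highest mean in each class, and up to 3 called genes were named in each related list. Library values of the other dynein genes, and other genes, were added after their values were seen. Knockout 2 and control 3 were not analysed here.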

Additional observations from a re-analysis of the deposited data

How the results depend on the processing

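All 33 tested dynein genes had a negative log2 fold change in 11 of 13 alternatives. The exceptions were Dnah5 without knockout 1 (0.16, the highest of its values without each library, the lowest being -1.45) and Dnaaf6b without control 2 (0.31, the lowest being -0.69), and outside these genes Foxj1 turned to -0.11 with scaling to Sertoli cell markers. The number of dynein genes called lower was 24 in the limma test, 23 by edgeR (12.3% of all genes lower) and by DESeq2 (13.3%), 18 without a filter on low values, 28 with Sertoli scaling, and 17 to 26 without each library. Of the 24 calls, 17 held without each library in turn. Without the mean-variance trend limma called 0 dynein genes, and so 0 in each class, with 25 lower at an unadjusted p under 0.05, and 40 genes lower and 0 higher overall (2827 and 1456 unadjusted). The cause was not tested. Without a filter 815 genes were lower and 37 higher, and 3 assembly factors were called. Scaling moved the median of all genes to 0.12 with library totals (1511 higher, so 57.0% of calls were falls, against 80.5%) and to -0.22 with Sertoli markers (4535 lower, 65 higher, 98.6% falls). The dynein median was -1.67 and -2.02 in these scalings. Without each library, 889 to 2096 genes were lower and 31 to 337 higher, with 3 to 5 outer arm, 10 to 12 inner arm, 2 to 4 docking and 2 to 5 assembly genes lower. Counts were low for Dnah3, Dnah5, Dnah9 and Dnah11, each under 40 reads per library. No paired analysis was possible because the knockout and control libraries with values share replicate number 1 alone.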

Other observations

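A pair of genes with matching symbols were left out because they are not typed as protein-coding in the deposited table. Dnaaf8, typed as a transcribed unitary pseudogene, had 279.6 and 275 normalised reads in the knockouts, against 367 and 528 in the controls. Dnah2os, a long noncoding RNA antisense to Dnah2, had 3.01 and 1.024 in the knockouts, against 0 and 0.992 in the controls.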
